A study of Homo sapiens with 4 samples.

Results

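In BT549 cells, a long established line from a human triple-negative breast tumour, the c-Jun peaks of each library had been called once with an IgG library as control and once with an input library as control. The regions described here are the peaks of the IgG-controlled list that overlapped no peak of the input-controlled list of the same library by even 1 bp. They were selected on the authors' peak calls themselves, so their number, scores and widths are a description and carry no test. In the library with TNFalpha, 280 of 4439 IgG-controlled peaks were of this kind (6.31%). In the library without TNFalpha, 237 of 3323 were (7.13%). Positions are hg19 coordinates counted from 1. The selected peaks are called IgG-only peaks below, and the IgG-controlled peaks that were also called against input are called both-control peaks.

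The cells had been kept in medium without serum overnight and then given TNFalpha or left without it. The sample labels put the exposure at 6 h and the series text at 3 h. The 4 libraries were c-Jun with TNFalpha and c-Jun without TNFalpha, both made with the antibody H-79, normal rabbit IgG and input chromatin. Both control libraries came from cells that had received TNFalpha, so the c-Jun library without TNFalpha was set against controls from treated cells. The cells are 1 line, with 1 library per condition and no replicate, so differences between the libraries describe these libraries and could not be set against a replicate spread. Chromatin had been fixed with 1% formaldehyde for 10 min. Peak lists hold no expression, so the cell line label was not checked against markers, and the read depth behind the lists is unknown.

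The transcription factor AP-1, to which c-Jun contributes a subunit with a leucine zipper, binds DNA as a dimer of Jun and Fos family proteins and is activated downstream of TNFalpha through the JNK kinase. In ChIP-seq a peak is called where the antibody library holds more fragments than a control predicts. An input library samples the sonicated chromatin before any antibody, so it carries the copy number of the cells and the ease with which each region is fragmented and recovered. An IgG library samples what sticks without specificity and is usually sparse. A region can therefore pass against one control and miss the threshold against the other. Neither control library's reads were used here, so input yield and copy number were not measured and their part in the results below was not tested.

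The deposited lists shared their intervals. All 4159 both-control peaks with TNFalpha and all 3086 without it had the same start and the same end in the input-controlled list of their library. Partial overlaps did not occur, and 0 IgG-only peaks shared any base with an input-controlled peak. Within a library the lists thus differed in which intervals they held and in their scores, not in where an interval began or ended. The IgG-only peaks are the intervals that were present in the IgG-controlled list alone. The 95% Wilson interval of their share was 5.63 to 7.06% with TNFalpha and 6.31 to 8.06% without it. These intervals cover counting error only and treat peaks as independent. In the opposite direction, 3881 of 8040 input-controlled peaks with TNFalpha and 4833 of 7919 without it had no IgG-controlled partner.

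IgG-only peaks were low in score. The score is the authors' peak caller's own value, and its scale is not stated in those lists or labels. Peaks were ranked by it inside a list. Scores of different lists that are printed side by side below are not to be read as comparable strengths. With TNFalpha the IgG-only peaks had scores from 50.1 to 135, with a median of 57.9 and quartiles of 53.5 and 66.3. The lowest score in that whole list was 50.01, and the both-control peaks had a median of 89.8 and reached 672. Without TNFalpha they ran from 50.1 to 139 with a median of 58.0, against a median of 81.0 and a highest value of 522 for both-control peaks. As a rank, the median IgG-only peak stood at percentile 13.8 of its list with TNFalpha and at percentile 17.6 without it, where percentile 0 is the lowest score. The lowest quartile of the list held 199 of the 280 peaks with TNFalpha (71.1%, 65.5 to 76.1%) and 150 of the 237 without it (63.3%, 57.0 to 69.2%). Only 15 in each library stood in the higher scoring 50% of the list. The share of peaks seen only against IgG fell along the score deciles, from 24.6% (20.8 to 28.8%) in the lowest decile with TNFalpha to 2.93% (1.72 to 4.94%) in the sixth. The corresponding shares without TNFalpha were 21.4% (17.3 to 26.1%) and 2.71% (1.43 to 5.07%). In each of the top 2 deciles with TNFalpha the count was 0 of 444, which allows a share of up to 0.676% if 3 counts are taken as the limit (Wilson upper bound 0.858%). In the top decile without TNFalpha it was 0 of 333, which allows up to 0.901% on the same limit (Wilson upper bound 1.14%).

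**Figure D1:**
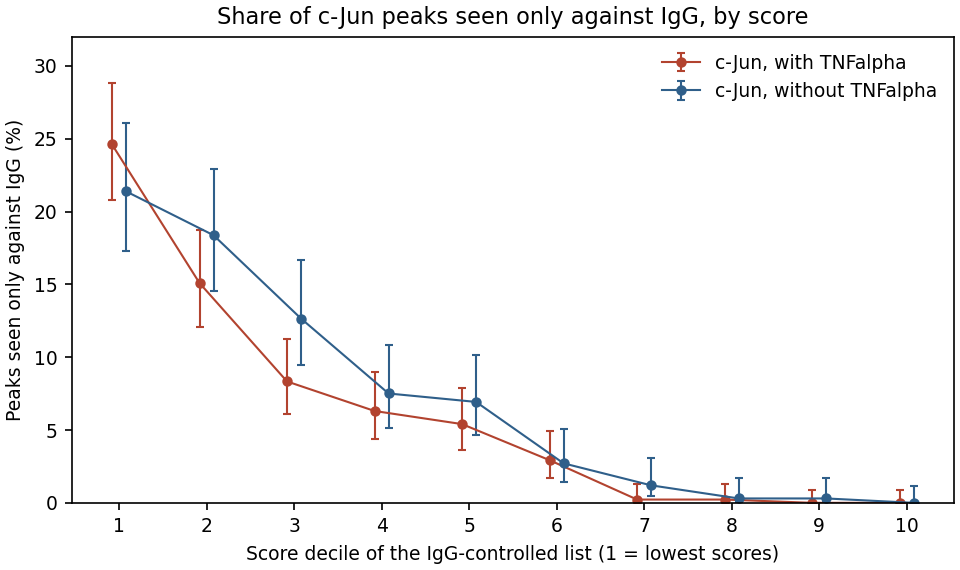
Share of IgG-controlled c-Jun peaks seen only against IgG (y axis, percent) in each score decile of the list (x axis, 1 is lowest) for the library with TNFalpha (red) and without it (blue). Points are shares of 332 to 444 peaks and bars are 95% Wilson intervals. Both curves start above 20% in the lowest decile and lie under 3% from the sixth decile on.

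The rule used the input call, so its edge lies at the lowest score that the input-controlled list held. Both-control peaks were found right down to that edge. With TNFalpha, 163 of them (3.92%) had an input score under 60, and without TNFalpha 168 did (5.44%). The both-control peak with the lowest input score with TNFalpha lay at chr18:3593859-3594185, scoring 65.3 in the IgG-controlled list and 50 in the input-controlled list. Without TNFalpha, a peak at chr7:143028572-143028999 scored 95.3 in the IgG-controlled list, at percentile 65.3, and 50.02 in the input-controlled list. Measured in bases, the IgG-only peak closest to an input-controlled peak lay 1 bp away, at chr9:18491011-18491359 in the library without TNFalpha, with a score of 53.5. The closest with TNFalpha lay 5 bp away, at chr14:35873858-35874145, with a score of 55.4. Since every both-control peak shared its full length, the both-control peaks with the smallest overlaps were simply the narrowest ones, 191 bp at chr10:101540085-101540275 with TNFalpha and 177 bp at chr12:15881324-15881500 without it.

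The IgG-only peaks were narrower than both-control peaks. In the lowest and second score quartiles they were about as wide as both-control peaks of the same quartile. With TNFalpha their median width was 352 bp (quartiles 303 and 419 bp), against 434 bp for both-control peaks. Without TNFalpha it was 322 bp (280 and 393 bp), against 396.5 bp. Inside the lowest score quartile the medians were 328 bp (95% order-statistic interval 316 to 343 bp) and 337 bp (332 to 341 bp) with TNFalpha. Without TNFalpha they were 309 bp (296 to 326 bp) and 317 bp (312 to 324 bp). The intervals of IgG-only and both-control peaks also overlapped in the second quartile of each library. Together the IgG-only peaks covered 107 kb with TNFalpha and 83.0 kb without it, 5.07% and 5.84% of the bases of their lists. The widest were on hg19 sequences that have no position within a chromosome. One of 1970 bp without TNFalpha lay on 17_gl000205_random (score 72.7) and one of 1273 bp with TNFalpha on Un_gl000220 (score 81.3). In all, 2 IgG-only peaks with TNFalpha and 1 without it lay on such sequences, of 4 and 2 IgG-controlled peaks there. The narrowest, 77 bp at chr2:3184867-3184943, was in the library without TNFalpha and had a score of 75.2.

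The highest scoring IgG-only peak with TNFalpha lay at chr9:132245425-132246340. It was 916 bp wide, scored 135 and ranked 1019 of 4439. In the library without TNFalpha the same place held a 421 bp peak that was also IgG-only and scored 50.7, close to the bottom of its list. The next were at chr16:56644110-56644618 (score 103) and at chr10:75173081-75173569 (score 98.2), 0.299 and 0.198 kb from the nearest input-controlled peak and without any overlapping peak in the other library. The fourth lay at chr20:48127080-48127517 (score 95.6, rank 1868). Without TNFalpha a 717 bp peak at this place was called against both controls and ranked 161 of 3323. The fifth, at chr10:44690947-44691286 (score 94.8), also met a both-control peak of the other library, at percentile 86.6 there. The other 5, with scores from 90.2 to 94.7, overlapped no peak of the other library. They lay at chr11:111603647-111604170, at chr22:45468229-45468537, at chr1:11865779-11866165, at chr8:38627729-38628130 and at chr20:30697185-30697743.

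Without TNFalpha the highest scoring IgG-only peak lay at chrX:133756149-133756646, with a score of 139 and rank 523 of 3323, and overlapped no peak of the other library. Of the next 9, 6 met a both-control peak with TNFalpha. The strongest of these partners lay on chromosome 20, where the IgG-only peak at chr20:56566164-56567015 (score 120) met a 991 bp peak that ranked 81 of 4439. The IgG-only peaks at chr5:60076025-60076391 (score 102), chr5:92841165-92841692 (score 101) and at chr5:77800697-77801067 (score 86.2) met partners at percentiles 91.5, 85.8 and 83.6. Those at chr6:4358851-4359254 (score 96.5) and at chr8:8457260-8457711 (score 85.1) met partners at percentiles 70.4 and 71.2. The other 3 met IgG-only peaks, at chr13:61158445-61158848 (score 88.8), at chr1:12609784-12610270 (score 84.5) and at chr1:49085097-49085497 (score 83.2). Among the 10 highest scoring, 3 thus had an IgG-controlled partner in the other library with TNFalpha and 9 without it. In the whole IgG-controlled lists 50.3% of peaks with TNFalpha and 67.4% without it had one, so the lists differed in the same direction.

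IgG-only peaks were spread over all of chromosomes 1 to 22 and X in both libraries, but not evenly. After overlapping peaks of the libraries were joined there were 478 distinct regions. Chromosome 9 held 53 of them and chromosome 1 held 52, followed by chromosome 8 with 44 and chromosome 3 with 39. Because c-Jun peaks are themselves uneven, the share of each chromosome's IgG-controlled peaks that were IgG-only was also taken. With TNFalpha it ran from 2 of 100 on chromosome X to 13.9% on chromosome 20, with a median of 6.61% over 23 chromosomes. Without TNFalpha it ran from 1.85% on chromosome 18 to 21.7% on chromosome 22, with a median of 6.74%.

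With TNFalpha the 95% Wilson interval lay wholly above the share of the whole list on 2 of the 23 chromosomes. Chromosome 20 had 24 of 173 (13.9%, 9.50 to 19.8%) and chromosome 9 had 31 of 296 (10.5%, 7.48 to 14.5%). It lay wholly below on chromosome 5, with 9 of 379 (2.37%, 1.25 to 4.45%). Without TNFalpha it lay above on 4 chromosomes. These were chromosome 22 with 5 of 23 (21.7%, 9.66 to 41.9%), chromosome 19 with 8 of 40 (interval 10.5 to 34.8%), chromosome 17 with 12 of 84 (14.3%, 8.37 to 23.3%) and chromosome 9 with 26 of 220 (11.8%, 8.19 to 16.8%). It lay below on chromosome 12 with 2 of 106, on chromosome 4 with 5 of 168 and on chromosome 6 with 11 of 271, whose interval ended just under the list's share (4.06%, 2.28 to 7.12%). Chromosome 20 without TNFalpha had 12 of 125 (9.60%, 5.58 to 16.03%), an interval that contained the list's share. Chromosome 5 without TNFalpha had 16 of 288 (5.56%, 3.45 to 8.83%). The libraries share both control libraries, so similar shares in both are not separate observations, and the intervals of 23 chromosomes per library carry no adjustment for their number.

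**Figure D2:**
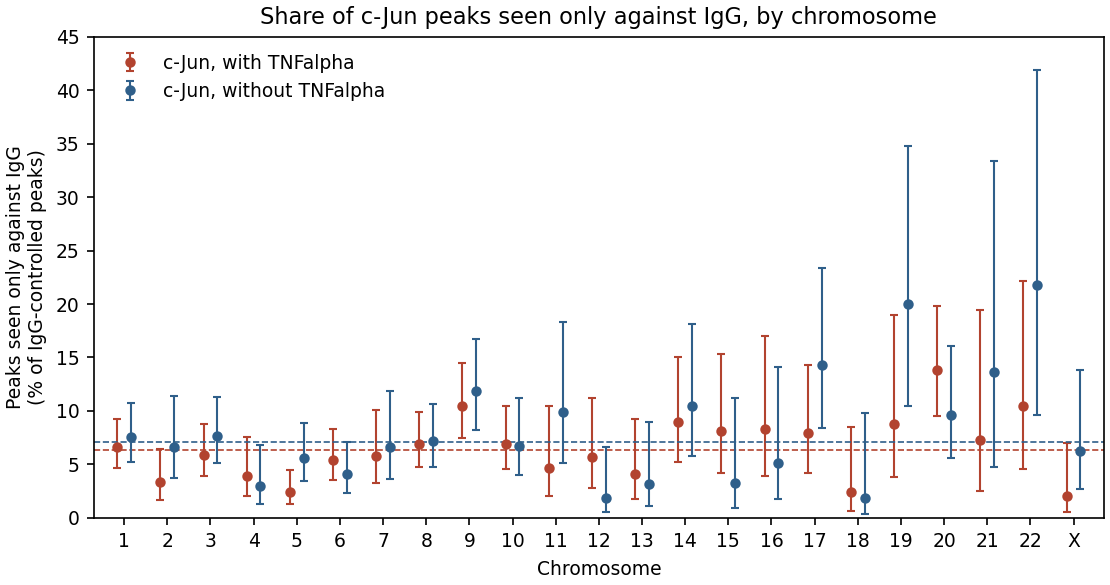
Share of IgG-controlled c-Jun peaks seen only against IgG (y axis, percent) on chromosomes 1 to 22 and X (x axis) with TNFalpha (red) and without it (blue). Points are shares, bars are 95% Wilson intervals, and dashed lines mark the whole lists at 6.31% (red) and 7.13% (blue). Only chromosome 9 has its whole bar above the dashed line in both libraries. Points of other chromosomes, 20 and 22 among them, also lie above the lines in both. Chromosome 20 has the highest share with TNFalpha, and the wide bars of chromosomes 19, 21 and 22 reflect their few peaks.

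A count for each chromosome was also predicted from its peaks' scores, by giving each score decile its list-wide share. The number of IgG-only peaks was within 1.5 times of this prediction on 13 of 23 chromosomes with TNFalpha and on 11 of 23 without it. Chromosome 1 held 31 against a prediction of 27.9 with TNFalpha and 27 against 25.4 without it. It was more than 1.5 times higher on 4 chromosomes with TNFalpha and 6 without it, and as much lower on 6 and 6. Chromosome 20 held 24 against 11.4 with TNFalpha and 12 against 7.70 without it. Chromosome 9 held 31 against 17.9 and 26 against 15.4. Chromosome 5 held 9 against 23.5 with TNFalpha and 16 against 20.6 without it. In the lower scoring 50% of the lists, where 11.9% of all peaks with TNFalpha and 13.3% without it were IgG-only, the share was 25.9% on chromosome 20 and 20.4% on chromosome 9 with TNFalpha, and 11 of 58 and 26 of 104 without it.

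At the level of 5 Mb windows the IgG-only peaks were mostly scattered. With TNFalpha they occupied 192 of the 553 windows that held an IgG-controlled peak, 130 of them with a single IgG-only peak and 4 with at least 4. Without TNFalpha they occupied 171 of 541 windows, 128 with a single one and 6 with at least 4. One window held the most in both libraries. It spans 45 to 50 Mb of chromosome 20 and held 11 of 40 IgG-controlled peaks with TNFalpha (27.5%, 16.1 to 42.8%) and 7 of 26 without it (26.9%, 13.7 to 46.1%). From their scores 2.65 and 1.72 would be predicted. The window was picked out for this number, so its share is a description. On the rest of chromosome 20 the share was 13 of 133 with TNFalpha (9.77%, 5.80 to 16.01%) and 5 of 99 without it (5.05%, 2.18 to 11.3%). The excess of the chromosome over the list thus lay largely in this window, and without TNFalpha none was seen outside it.

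In this window the 11 IgG-only peaks with TNFalpha scored from 51.0 to 95.6 and were 333 to 688 bp wide. The 7 without TNFalpha scored from 56.7 to 63.9 and were 310 to 546 bp wide. The same place was IgG-only in both libraries at 2 positions, chr20:47961491-47961858 (scores 54.2 with TNFalpha and 61.2 without it) and at chr20:48720285-48720617 (scores 54.7 and 63.9). Of the remaining IgG-only peaks, 5 with TNFalpha and 4 without it were both-control peaks in the other library, and 4 and 1 met no peak there. The IgG-only peaks lay between both-control peaks, of which the window held 29 with TNFalpha and 19 without it. Peaks seen only against input were 8 of the window's 37 input-controlled peaks with TNFalpha and 3 of 22 without it. In the whole input-controlled lists they were 3881 of 8040 and 4833 of 7919. The map of the window shows that the libraries differed in where most of the IgG-only peaks fell. In chr20:45948218-46928188 there were 2 of 12 IgG-controlled peaks with TNFalpha and 4 of 9 without it, and in chr20:47961491-49379740 there were 9 of 21 and 3 of 12.

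**Figure D3:**
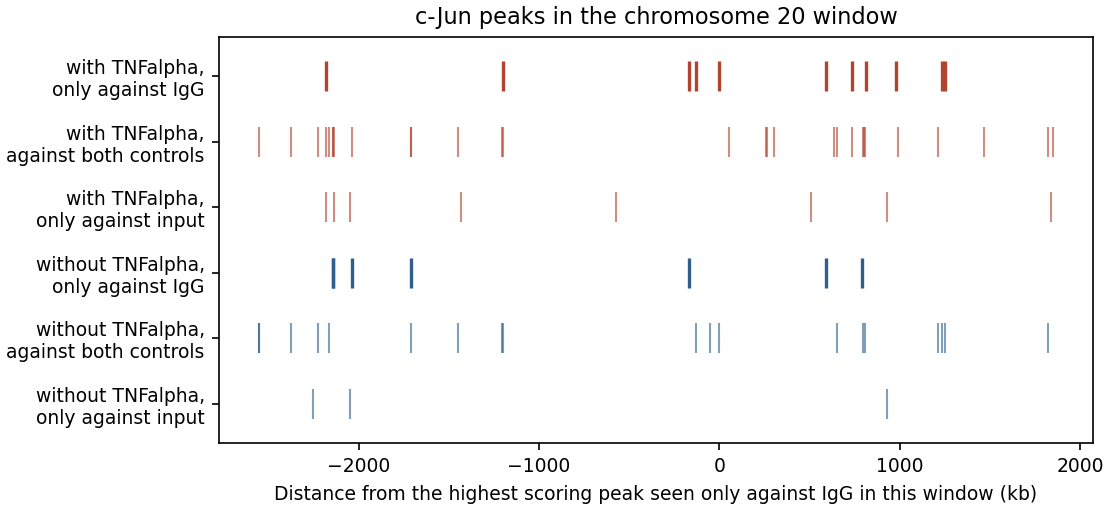
c-Jun peaks between 45 and 50 Mb of chromosome 20, one row for each library and class (y axis), placed by distance in kb from the highest scoring IgG-only peak of the window (x axis). Each tick is 1 peak. With TNFalpha (red) 9 of the 11 IgG-only peaks lie between -166 and 1252 kb, and without TNFalpha (blue) 4 of the 7 lie between -2141 and -1708 kb.

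Other windows held fewer. Between 115 and 120 Mb of chromosome 9, 5 of 24 IgG-controlled peaks with TNFalpha and 3 of 16 without it were IgG-only. Between 35 and 40 Mb of the same chromosome 4 of 21 and 4 of 9 were, and between 25 and 30 Mb of chromosome 8 4 of 24 and 4 of 22 were. In some windows only one library had several. Between 35 and 40 Mb of chromosome 22, 5 of 9 peaks without TNFalpha and 0 of 12 with TNFalpha (Wilson upper bound 24.2%) were IgG-only. Chaining the distinct regions of both libraries over gaps of at most 1 Mb gave 343 chains, 261 of them a single region. There were 9 chains with at least 4 regions, holding 52 of the 478 regions (10.9%). The longest by number was at chr20:47961491-49379740 with 10 regions. The chain of 7 at chr1:233979272-237018331 held 4 of 24 IgG-controlled peaks with TNFalpha and 4 of 14 without it as IgG-only, and that of 7 at chr9:116037684-117805559 held 4 of 14 and 3 of 8. Chains of 6 lay at chr20:45948218-46928188 and at chr9:37283780-38690112, the latter with 4 of 14 and 2 of 5. Chains of 4 lay at chr1:8215443-9046631, at chr20:55652043-57226423, at chr3:107711750-108190616 and at chr9:18114997-19456662. Their IgG-only peaks were 2 of 9 with TNFalpha and 3 of 10 without it, 3 of 8 and 2 of 5, 3 of 3 and 1 of 1, and 2 of 8 and 2 of 4, in that order. Chromosomes 9 and 20 carried 6 of the 9 chains, and since the chains were built from IgG-only regions these shares are a description.

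With TNFalpha 93 of the 280 IgG-only peaks had another IgG-only peak of the same library within 1 Mb (33.2%, 28.0 to 38.9%), and without TNFalpha 65 of 237 did (27.4%, 22.1 to 33.4%). Both-control peaks are far more numerous, so their share (94.5% and 91.5%) is not comparable, and the composition of the neighbourhood was taken instead. Of all IgG-controlled peaks within 1 Mb of an IgG-only peak, 10.1% with TNFalpha and 9.16% without it were IgG-only. Around both-control peaks the shares were 6.396% and 6.952%. When the 45 to 50 Mb window of chromosome 20 was left out the shares around IgG-only peaks were 7.64% and 7.93%, and those around both-control peaks 5.92% and 6.58%. IgG-only and both-control peaks had the same median number of both-control neighbours, 5 with TNFalpha and 3 without it.

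The both-control peaks near IgG-only peaks ranked lower against input than against IgG with TNFalpha, and by less without it. Each both-control peak was given a percentile by its IgG score and another by its input score, both within the both-control set of its library, so that the same set of peaks was ranked both ways. These values are not separate from the rule, which kept a peak in the both-control set only if it was in the input-controlled list. They also come from the same c-Jun reads and the same controls as the calls, so the comparison is a description. The difference, input percentile minus IgG percentile, was taken as its median over the both-control peaks within 1 Mb. With TNFalpha 266 IgG-only peaks had such neighbours, and the median of this difference was -3.73 percentile points (95% order-statistic interval -4.85 to -2.19), below 0 for 176 of them (66.2%). Around both-control peaks it was 0.102 (-0.0962 to 0.301), and below 0 for 49.1%. Without TNFalpha it was -1.29 around 208 IgG-only peaks (-3.03 to 0.23) and 0.78 around both-control peaks (0.13 to 1.21). It was below 0 for 117 of the 208 (56.2%) and for 47.4% of both-control peaks. The interval around IgG-only peaks without TNFalpha includes 0. Neighbouring peaks share neighbours, so these intervals are narrower than independent regions would give.

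The same measure was also taken where IgG-only peaks were dense. The 29 both-control peaks in the 45 to 50 Mb window of chromosome 20 stood at a median percentile of 62.3 against IgG and 39.4 against input with TNFalpha. The 19 without TNFalpha stood at 74.1 and 45.9. With TNFalpha the median difference was below 0 in all 4 windows that held at least 4 IgG-only peaks, from -13.9 to -8.24. Without TNFalpha it was below 0 in 3 of 6 such windows. It was -14.1 in the chromosome 20 window, but 10.9 between 35 and 40 Mb of chromosome 22, 6.42 between 25 and 30 Mb of chromosome 8 and 0.227 between 35 and 40 Mb of chromosome 9. Outside the window the both-control peaks of chromosome 20 stood at 59.9 and 54.3 with TNFalpha, and at 54.6 and 49.6 without it. On the 6 chromosomes with the highest share of IgG-only peaks with TNFalpha (20, 9, 22, 14, 19 and 16) the median difference was below 0 on all 6, from -12.2 on chromosome 19 to -0.0962 on chromosome 16. Over the other 17 chromosomes it was below 0 on 4 and ran up to 7.13. Without TNFalpha it was below 0 on 5 of the 6 highest (22, 19, 17, 21, 9 and 14) and on 4 of the other 17. These counts depend on the cut at 6 chromosomes. The next chromosome by share had a difference above 0 in both libraries, 2.43 on chromosome 15 with TNFalpha and 2.43 on chromosome 11 without it. Whether input coverage, copy number or IgG coverage lies behind these values was not tested.

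In the other library, most IgG-only peaks had no IgG-only counterpart. Of the 280 with TNFalpha, 39 overlapped an IgG-only peak without TNFalpha (13.9%, 10.4 to 18.5%), and these are 39 of the 237 without TNFalpha (16.5%, 12.3 to 21.7%). Of the 478 distinct regions, 8.16% were IgG-only in both libraries (6.03 to 10.96%), 241 in the library with TNFalpha alone and 198 in the other alone. A further 49 with TNFalpha (17.5%, 13.5 to 22.4%) and 87 without it (36.7%, 30.8 to 43.0%) met a both-control peak of the other library, 2 and 2 met a peak seen there only against input, and 190 (67.9%, 62.2 to 73.1%) and 109 (46.0%, 39.8 to 52.4%) met no peak at all. Among both-control peaks, 2.12% with TNFalpha and 1.59% without it met an IgG-only peak of the other library. No peak was met by 35.9% and 20.1% of them. In the lowest score quartile, 72.9% of IgG-only and 51.6% of both-control peaks met no peak with TNFalpha. Without TNFalpha these shares were 54.7% and 37.5%.

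Set against the whole lists, an IgG-controlled counterpart of any kind was less frequent for IgG-only peaks. It was present for 88 of 280 with TNFalpha (31.4%), where 50.3% of the whole list had one, and for 126 of 237 without TNFalpha (53.2%), where 67.4% of the list had one. Inside a score quartile, which matches scores only coarsely, the intervals of the shares overlapped. In the lowest score quartile 26.1% of IgG-only peaks (20.5 to 32.6%) and 30.0% of both-control peaks (27.1 to 33.1%) had one with TNFalpha, and 66 of 150 (36.3 to 52.0%) and 43.1% (39.4 to 46.8%) without it. In the second quartile the shares were 43.9% and 40.3% with TNFalpha, and 65.3% and 56.5% without it, with overlapping intervals. The third quartile held few IgG-only peaks. There 6 of 14 and 54.8% had one with TNFalpha, and 12 of 13 and 75.4% without it, so the difference went in opposite directions. The kind of counterpart differed. In the lowest quartile with TNFalpha, 11.6% of IgG-only peaks but 0.989% of both-control peaks met an IgG-only peak, and 1.01% against 18.4% met a peak seen only against input. Without TNFalpha these were 11.3% against 0.588% and 1.33% against 19.4%. Both libraries were called against the same IgG and input libraries, so these shares are not independent between libraries. The classes and the kinds of counterpart were both set by the input calls. The difference in kind is therefore not separate from the rule and is a description.

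**Figure D4:**
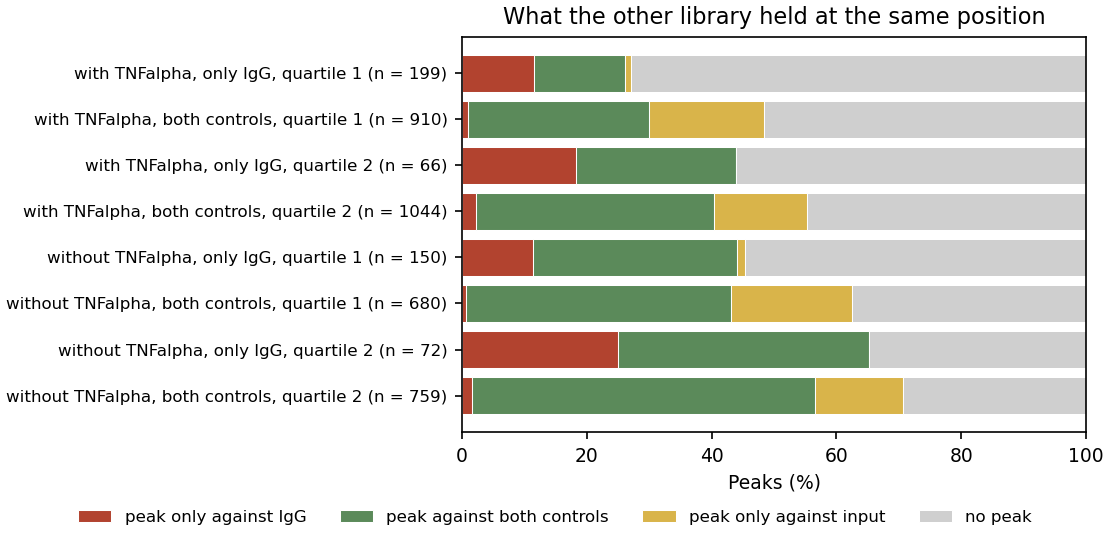
What the other library held at the place of each IgG-only and both-control peak (x axis, percent of peaks), for score quartiles 1 and 2 of each library (rows, with the number of peaks). Red is an IgG-only peak, green a both-control peak, yellow a peak only against input and grey no peak. Red and green together are similar in paired rows of quartile 1, while yellow is nearly absent from the rows of IgG-only peaks. The rows and the colours were both set by the input calls, so this contrast is not separate from the rule.

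The regions that were IgG-only in both libraries coincided closely. Among the 39 pairs the median overlap was 99.7% of the shorter peak, 38 overlapped by at least 50% of it, and the centres were a median of 46.5 bp apart. Chromosome 1 held 6 of the pairs, chromosome 3 held 5, and chromosomes 9 and 20 held 4 each. They were low scoring peaks as well, with a median percentile of 22.2 with TNFalpha and 29.8 without it, and only 8 pairs stood above percentile 25 in both lists. These were at chr14:61681940-61682306 (scores 82.2 with TNFalpha and 73.8 without it) and at chr14:31634921-31635307 (83.9 and 73.6), and at chr1:12609735-12610274 (76.6 and 84.5) and at chr1:234645254-234645786 (68.7 and 67.8). They were further at chr3:196519729-196520075 (70.8 and 69.1) and at chr3:171024411-171024832 (88.4 and 65.0), at chr21:20144861-20145192 (69.3 and 76.0) and at chr5:60704424-60704775 (65.8 and 72.0). The next pairs in this order lay at chr10:93374033-93374337 (63.2 and 71.0) and at chr13:61158486-61158796 (62.5 and 88.8). Coordinates are those with TNFalpha.

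The both-control peaks that met an IgG-only peak of the other library were not low scoring. The 88 such peaks with TNFalpha stood at a median percentile of 65.0 of their list (quartiles 42.3 and 84.2). The 87 IgG-only peaks without TNFalpha that met a both-control peak and no IgG-only peak stood at 21.9. The 49 such both-control peaks without TNFalpha stood at a median of 58.7 (43.8 and 71.4). The 49 IgG-only peaks with TNFalpha that met a both-control peak and no IgG-only peak stood at 19.9. For comparison, all both-control peaks stood at a median percentile of 52.9 with TNFalpha and 53.2 without it. All IgG-only peaks stood at 13.8 and 17.6, so most of this contrast was already present between the whole sets. IgG-only peaks with no peak in the other library had a median percentile of 12.5 with TNFalpha and 15.4 without it. The 2 that met a peak seen only against input stood at 13.2 and 7.96 with TNFalpha, and the 2 without TNFalpha at 16.04 and 0.271. Percentiles refer to each peak's own list, and the lists differ in length.

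The distance from each IgG-only peak to the nearest input-controlled peak was compared with that of both-control peaks to the nearest other one. With TNFalpha the nearest input-controlled peak was a median of 35.7 kb away (95% order-statistic interval 23.3 to 49.0 kb), and 29 of 280 lay within 500 bp of one. For all both-control peaks it was 23.3 kb (20.9 to 25.3 kb), and for those of the lowest score quartile 28.9 kb (23.9 to 34.4 kb). Without TNFalpha it was 53.4 kb for IgG-only peaks (38.3 to 69.4 kb), of which 19 of 237 lay within 500 bp, 38.7 kb for all both-control peaks (34.1 to 42.7 kb) and 45.5 kb for those of the lowest quartile (35.8 to 54.9 kb). The medians of IgG-only peaks were thus the longer ones, and in both libraries their intervals overlapped those of both sets of both-control peaks. The most isolated IgG-only peak on a chromosome lay 2595 kb from the nearest input-controlled peak and was the 77 bp peak on chromosome 2 named above.

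A larger share of IgG-only than of both-control peaks lay near the ends of chromosomes in both libraries. The difference was not tested, and overlap of the intervals does not settle it. The highest peak end in any list was taken as the end of a chromosome. With TNFalpha 30 of 278 placed IgG-only peaks were within 5 Mb of an end (10.8%, 7.66 to 15.0%), against 6.86% of both-control peaks (6.13 to 7.66%), with intervals that only just overlapped. Without TNFalpha 20 of 236 were (8.47%, 5.55 to 12.7%), against 5.67% (4.91 to 6.55%), with overlapping intervals. Near the longest stretch without any peak on each chromosome, 6.83% of IgG-only and 5.80% of both-control peaks lay within 5 Mb with TNFalpha, and 4.66% and 5.32% without it, also with overlapping intervals.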

How the data were processed

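The tools named are CASAVA 1.8 and Bowtie 0.12.9, an aligner of short reads, and the build is hg19, per the submitters' processing notes. The authors deposited 4 peak lists, 2 per c-Jun library, with a score for each peak as the only measurement. The control of each list comes from the labels, in words without TNFalpha and from the names of the lists with it. Peak names begin with MACS, and neither its version nor its threshold or treatment of duplicate reads is stated there. Each list came from 1 library. Read depth is unknown.

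Starts were raised by 1, so coordinates are 1-based on hg19. Overlaps, Wilson intervals and order-statistic intervals of medians came from scipy 1.17.1, pandas 2.3.3 and numpy 2.4.6 under Python 3.11.15, and plots from matplotlib 3.10.9. Of 4 overlap counts, 0 differed from bedtools 2.31.1. On simulated lists 100 of 100 planted IgG-only peaks were recovered and 0 of 900 others were called. Overlap was fixed when those lists were made, so this checks the code and not how reliable the IgG-only class is. With 1 library per condition no test was made.

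The regions, their rule and the summaries were chosen with earlier results of these data known. Named peaks are the 10 highest scoring of each library, the 10 highest ranking pairs found in both libraries, chains of at least 4, the peaks nearest to the rule's edge, and peaks at an extreme of width or in the window on chromosome 20, which were picked after their values were seen. The percentile comparison was also added after the lists had been seen. Genes, motifs and sequences were not analysed here, because no hg19 genome or annotation was used.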

Additional observations from a re-analysis of the deposited data

How the results depend on the processing

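No paired analysis was possible because there was a single library of each kind, so no library could be left out either. Values are given with TNFalpha first. Restriction to chromosomes 1 to 22 and X left the 14 values tried inside their intervals, or for counts within 1.5 times. A distance of 500 bp in place of an overlap with input-controlled peaks did so for the same 14 values. Requiring an overlap to reach 50% of the shorter peak's length left all 14 unchanged. No other outcome was possible there, because every both-control peak shared its full length with its input-controlled partner, so that setting checks nothing. In the higher scoring 50% of the lists there were 15 and 15 IgG-only peaks (0.676% and 0.904% of peaks), with median widths of 438 and 404 bp, median percentiles of 55.3 and 57.7, 20% and 20% of them on the chromosome with the most, 0% and 13.3% with another within 1 Mb, and 0% and 0% found in both libraries, where the other library was also limited to its higher scoring 50%, so that pairs with 1 low scoring peak were lost. In the lowest score quartile the median widths were 328 and 309 bp. Peaks absent from the input-controlled lists of both libraries numbered 229 and 147. Neighbours were found for 9.29% and 6.75% within 100 kb and for 76.4% and 64.1% within 5 Mb. Counting any IgG-controlled peak of the other library raised recurrence to 31.4% and 53.2%, and any peak of either list to 32.1% and 54.0%.

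The following alternatives were chosen after seeing the data. In the lower scoring 50% of the lists the chromosome 20 window had 45.5% and 53.8% IgG-only peaks, and the neighbourhoods of IgG-only peaks 20.5% and 18.2%, against 11.5% and 13.1% around both-control peaks. Moving the window 2.5 Mb down gave 12.5% and 23.8%, and 2.5 Mb up 23.7% and 13.6%, so its share depends on where it is placed. Without the window the share of IgG-only neighbours was 7.64% and 7.93%, and the whole-list shares were 6.11% and 6.98%. The percentile difference near IgG-only peaks kept its sign at 500 kb (-2.73 and -1.60), at 5 Mb (-1.60 and -1.39) and without the window (-3.07 and -0.96). With TNFalpha the value at 5 Mb lay outside the interval of the value at 1 Mb (-4.85 to -2.19). The unknown depth limits any statement that a peak is absent against input.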
